A study of Mus musculus with 5 samples.

Results

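The Rab family of small GTPases was followed in polyadenylated RNA of the mouse neuroblastoma line Neuro-2A (N2A) after knockdown of Upf1. Members were the protein-coding genes of the deposited count table whose symbol is Rab followed by a number and an optional letter and digit, which gave 59 of 55573 genes. The cells had been transfected transiently with 60 pmol of a commercial negative control siRNA (siCtl, 2 libraries, replicates 1 and 3) or of an siRNA against Upf1 (siUpf1, 3 libraries, replicates 1, 2 and 3), and the groups shared everything else that the labels state. Upf1 encodes an RNA helicase needed for nonsense-mediated mRNA decay (NMD), the pathway that degrades mRNAs whose translation ends too early, and the comparison asks which Rab mRNAs were higher or lower when UPF1 was depleted. A single siRNA and a single cell line were used, and siCtl held only 2 libraries.

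Rab proteins are molecular switches that cycle between a GTP-bound form on a membrane and a GDP-bound form in the cytosol. Each one marks a particular compartment, and there it recruits effectors that move, tether or dock vesicles. Guanine nucleotide exchange factors (GEFs) switch them on, GTPase-activating proteins (GAPs) switch them off, GDP dissociation inhibitors (GDIs) carry them through the cytosol, and a lipid (prenyl) group on cysteines at the C terminus anchors them. In neurons, Rab3 proteins sit on synaptic vesicles and Rab5, Rab7 and Rab11 proteins run the endosomes.

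The C-terminal anchor can be read from the ends of the coding sequences in GENCODE M21 (GRCm38). The last 30 bases of 8 members are shown 5′ to 3′, stop codon included, because Rab3 and Rab8 are subfamilies in which 1 paralogue changed more than another, and Rab2a and Rab28 are among the members described below. Cysteine codons (TGC or TGT) among the last 5 sense codons are in capitals.
Rab3a: gcgccacctcatcaggatTGTgccTGCtga
Rab3b: cctctgctgcagcagaacTGCtctTGTtag
Rab3c: cctccaccacagcccaacTGTggcTGCtaa
Rab3d: cccccacagccgagcagcTGCagcTGTtag
Rab8a: accagcttcttccggTGCagtctcctgtga
Rab8b: accagtttcttccgcTGTtctctgctttga
Rab2a: ggacagcaggcagggggaggcTGCTGTtga
Rab28: cctcggagctccatgTGTgcagtgcagtga
The Rab3 members carry a pair of cysteines with 1 residue between them, Rab2a carries 2 adjacent cysteines, and Rab8a, Rab8b and Rab28 carry 1. Among the 57 members examined for this feature, 49 had 2 or more such codons and 8 had 1 (Rab8a, Rab8b, Rab13, Rab23, Rab28, Rab38, Rab40b and Rab40c).

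The siRNA was directed at the coding sequence of Upf1, and its sequence is given because its seeds were also searched for in Rab 3′ untranslated regions (3′ UTRs). The sense strand in the labels was identical to bases 1445 onward of transcript Upf1-201, whose coding sequence runs from 286 to 3660. The 19 matching bases are in capitals with 5 bases of context on each side.
Upf1 target site: cgtcaTCAAGGTTCCTGATAATTAtggtg
Guide strand, seed in capitals: uAAUUAUCaggaaccuuga
Sense strand, seed in capitals: uCAAGGUUccugauaauua
Upf1 had 5217 and 5243 normalised read counts in siCtl 1 and 3, against 2403, 2496 and 2449 in siUpf1 1, 2 and 3. The groups lay far apart, with 46.8% of the siCtl level remaining in siUpf1 (log2 fold change -1.10, SE 0.051, DESeq2 adjusted p = 7.09e-101).

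Libraries held 20402205 to 27717594 assigned counts, of which Rab genes took 0.257% to 0.276%. Pearson's r between libraries, on a log scale across genes that are not independent replicates, was at least 0.994 within and at most 0.981 between groups. Summed over 7 neuronal and neuroblastoma markers, normalised read counts were 25260 to 25290 in siCtl and 25310 to 27350 in siUpf1, with Tubb3 at 14560 ± 51.9 (SD, n = 2) and 14110 ± 789 (SD, n = 3), and 2 of the 7 (Nefl and Nefm) were on average under 10. Of the 5 neuronal markers tested, 3 were higher in siUpf1, among them Mycn (259 to 654) and Map2 (878 to 1492), and Stmn2 was lower (6281 to 5616). Summed counts of 12 markers of fibroblasts, immune, endothelial and glial cells were 916 to 945 in siCtl and 840 to 847 in siUpf1. Mog was at 0 in every library, and 5 of these 12 were on average under 10. Of the 7 tested, Pecam1 (208 to 121) and Pdgfra (213 to 153) were lower and 5 were not called. Among those not called, Mbp, the most abundant of the 12, lay higher without overlap (log2 fold change 0.22, DESeq2 adjusted p = 0.116). The part of these shifts in the Rab results was not tested. N2A is a single line that the study describes as homogeneous, so reads of the 12 markers do not show other cell types. Fewer cells with an mRNA and less of it per cell cannot be told apart in bulk RNA.

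Of the 59 Rab genes, 49 had enough reads for an adjusted p-value. The remaining 10 were at or near 0. No read was counted in any library for Rab29, Rab38, Rab6b and Rab7b, which at these depths allows a level of up to 0.108 to 0.147 CPM (counts scaled to library size) in a library (3 counts, counting error only). Between 0 and 4 reads per library were counted for Rab9b, Rab17, Rab19 and Rab27b. Rab33a had 4 to 13 and Rab42 1 to 11 reads per library.

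The summed level of Rab mRNA was nearly the same in siUpf1 and siCtl, and single members were higher or lower. A gene was called when its DESeq2 adjusted p-value was under 0.05. There were 22 called Rab genes of 49 tested (44.9%), 11 higher and 11 lower in siUpf1. Without siCtl 1 or without siCtl 3, 6 were lower. Over all 15191 tested genes 44.9% were called, 22% higher and 22.9% lower, and over the 12730 tested protein-coding genes 51.2% were called, so the family was called about as often as genes in general. Among the Rab genes, 7 rose by at least 0.5 on the log2 scale (14.3%, against 10.2% of all tested genes) and 4 fell by at least 0.5 (8.16%, against 8.31%). Normalised read counts of siCtl and siUpf1 libraries did not overlap for 37 of the 49 (75.5%). This compares with 69.4% of all tested genes and with 9412 of the 12730 tested protein-coding genes. The median log2 fold change was 0.05 for the tested Rab genes and -0.0024 for all tested genes.

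**Figure D1:**
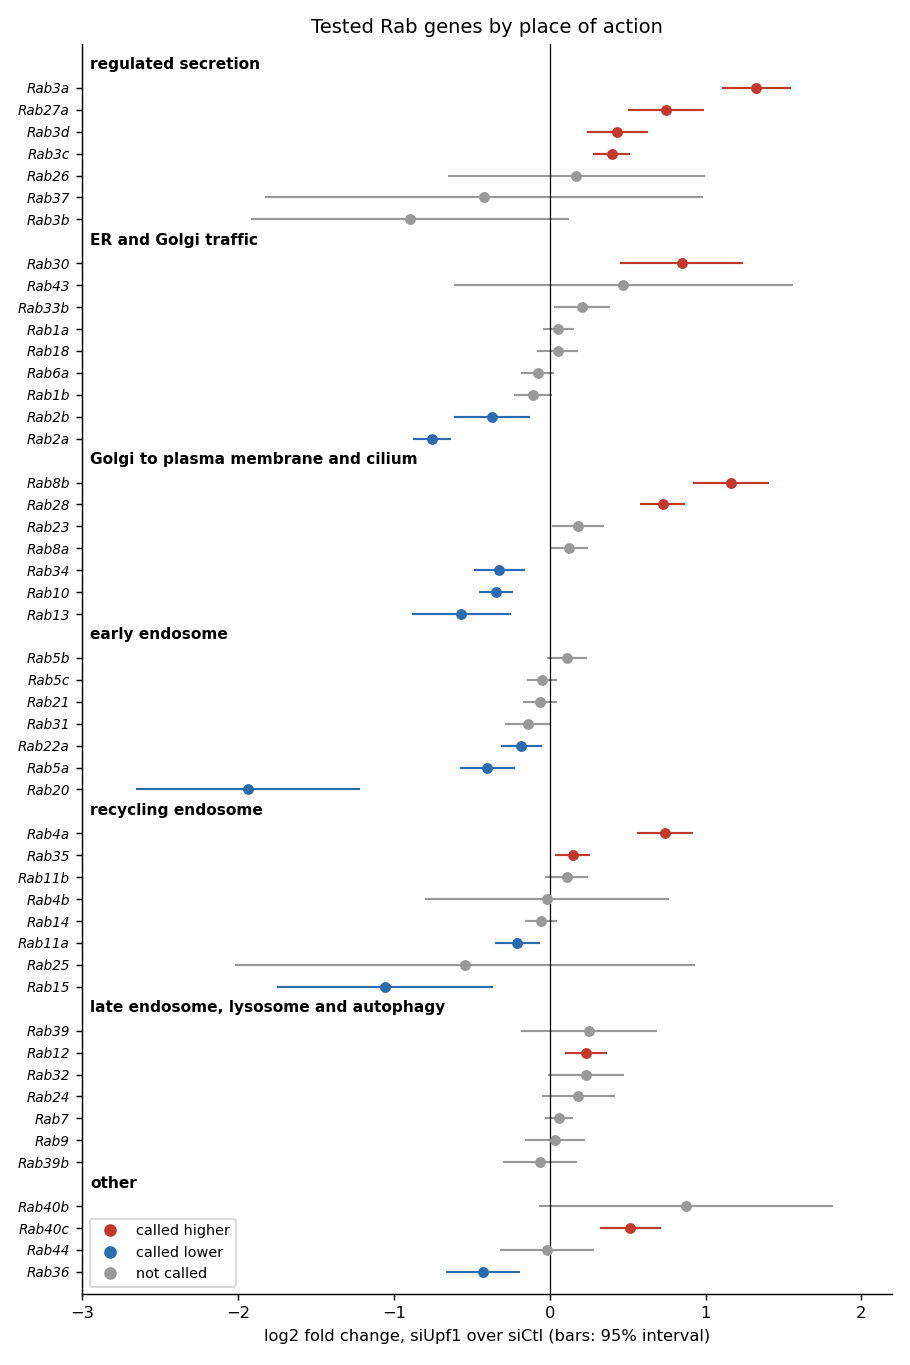
Log2 fold change of siUpf1 over siCtl (x axis) for the 49 tested Rab genes, grouped by the place where the protein acts, with points coloured by call and bars for the 95% interval from the DESeq2 standard error. The 11 genes called higher run from Rab35 (0.15) to Rab3a (1.33) and the 11 called lower from Rab22a (-0.18) to Rab20 (-1.93). Regulated secretion has 4 genes called higher and none called lower, and the late endosome group also has none called lower.

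The abundant Rab mRNAs are those of general membrane traffic. In TPM (counts per exon length, scaled to the same total in each library), the 5 highest members in siCtl were Rab5c, the main early endosome Rab here (260.5 ± 20.6, SD, n = 2), Rab7 of late endosomes and lysosomes (246.8 ± 5.57), Rab1a of ER to Golgi transport (159.9 ± 9.25), Rab6a of the Golgi (144.6 ± 3.06) and Rab2a, which acts between the ER and the Golgi (140.4 ± 8.88). The means of Rab5c and Rab7 differed by less than the SD of Rab5c, and those of Rab6a and Rab2a by less than the SD of Rab2a. Together these 5 made up 45.2% of all Rab TPM in siCtl, and the first 10 made up 65.9%. There were 34 members at 10 TPM or more and 15 under 1 TPM. Of the first 5, only Rab2a was called by DESeq2. Ranks between genes rest on the union of all annotated exons of a gene, and isoforms in use can differ from it.

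Summed over the family, the level was 2041 and 2173 TPM in siCtl against 2301, 1886 and 2068 TPM in siUpf1. The groups overlapped, and the ratio of their means was 0.990. Expressed as normalised read counts per kilobase of exon, a scale added after seeing the data because TPM varied between siUpf1 libraries, the sums were 18950 and 19090 against 19170, 19160 and 18820, a ratio of 1.002. The gene with the largest share of reads, Gm42418, took 4.27% to 7.32% of a library, with both extremes in siUpf1, and its part in the spread of TPM was not tested.

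**Figure D2:**
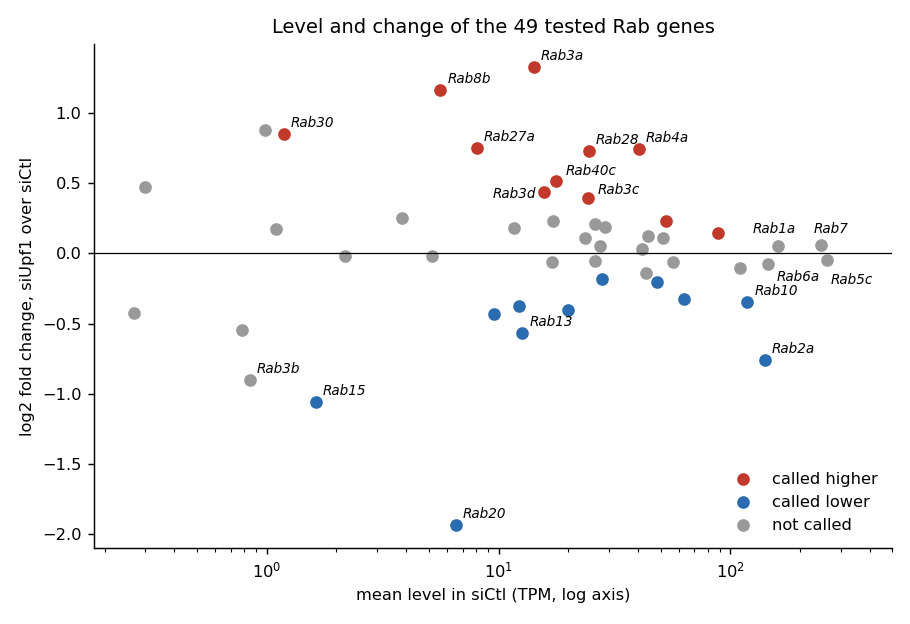
Mean level in siCtl (TPM, log axis) against the log2 fold change of siUpf1 over siCtl for the 49 tested Rab genes, coloured by call. Rab5c, Rab7, Rab1a and Rab6a, the most abundant, lie within 0.1 of 0, Rab2a at 140.4 TPM lies at -0.76, and Rab3a and Rab8b, the highest on the y axis, lie at 14.2 and 5.61 TPM.

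Of 7 tested Rabs of regulated secretion, a group of 8, DESeq2 called 4 higher in siUpf1 (Rab3a, Rab3c, Rab3d and Rab27a). These are 57.1% of a small group, beside 22% of all tested genes called higher and 24.5% of protein-coding genes, and no test of the difference was made. None was called lower, also at an unadjusted p-value under 0.05, whereas edgeR called the low-count member Rab3b lower. Of all tested genes 22.9% were called lower, so in a group of 7 the absence of a lower member says little. The late endosome, lysosome and autophagy group also had no lower member. The median log2 fold change of the 7 secretion Rabs was 0.40, beside -0.0024 over all tested genes. In normalised read counts per kilobase, the group summed to 582.6 and 581.2 in siCtl and to 957.3, 956.8 and 908.3 in siUpf1, a ratio of 1.62. For the groups with other places of action this ratio was between 0.899 and 1.18.

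Rab3a encodes the main Rab of synaptic vesicles, where it acts in calcium-triggered release. Rab3a (chromosome 8, 70754679 to 70758677, plus strand, GRCm38) had 291.4 and 278.3 normalised read counts in siCtl 1 and 3, against 735.5, 727.9 and 680.1 in siUpf1 1, 2 and 3. The siUpf1 libraries were close to each other and far above both siCtl libraries, and Rab3a had the largest increase of the tested Rab genes, 2.51-fold (log2 fold change 1.33, SE 0.112, DESeq2 adjusted p = 1.26e-30). Across all alternatives its log2 fold change stayed between 1.24 and 1.40.

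Rab3c, found with Rab3a on neuronal secretory vesicles, had 2554 and 2743 normalised read counts in siCtl and 3669, 3354 and 3435 in siUpf1. The groups did not overlap, and the increase was smaller than that of Rab3a (log2 fold change 0.40, SE 0.060, DESeq2 adjusted p = 2.48e-10). Rab3d, best known on secretory granules of exocrine cells, had 619.5 and 567 in siCtl and 757.7, 876 and 774.6 in siUpf1, again without overlap (0.43, SE 0.101, DESeq2 adjusted p = 6.97e-05). Rab3b was low in every library. It had 29.4 and 24.5 in siCtl and 13.3, 13.8 and 16.1 in siUpf1, so that all siUpf1 values were below both siCtl values. The DESeq2 test did not call it (log2 fold change -0.90, SE 0.521, adjusted p = 0.154), whereas the adjusted p of edgeR's quasi-likelihood test was 0.0232.

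The differences within the Rab3 subfamily were estimated directly, as 4 of 13 paralogue pairs compared. The log2 fold change of Rab3a exceeded that of Rab3c by 0.93 (95% interval 0.68 to 1.18), that of Rab3d by 0.89 (0.60 to 1.19) and that of Rab3b by 2.23 (1.18 to 3.27). Rab3c and Rab3d differed by -0.04 (-0.27 to 0.19), an interval that holds 0 and leaves room for a difference of up to 0.27 on the log2 scale. The intervals are from the DESeq2 standard errors taken as independent and were not adjusted for the number of pairs. In TPM, Rab3c was the highest of the 4 in siCtl (24.4 ± 2.18) and Rab3d (15.6 ± 0.37) and Rab3a (14.2 ± 0.09) followed. This order rests on exon lengths of 12049 nt for Rab3c, 4196 nt for Rab3d and 2226 nt for Rab3a. Isoforms in use can be shorter, and the SDs do not cover that. In siUpf1, Rab3a was at 35.1 ± 3.97, Rab3c at 31.8 ± 4.59 and Rab3d at 20.8 ± 0.74. Rab3a was above Rab3c in each siUpf1 library (39.7 against 36.6, 32.2 against 27.4 and 33.6 against 31.3 TPM). The share of Rab3a in the summed TPM of the subfamily went from 26.2% and 25.3% in siCtl to 40.3%, 40.0% and 39.2% in siUpf1, and that of Rab3b from 1.67% and 1.41% to between 0.462% and 0.584%.

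Rab27a docks secretory granules and melanosomes at the plasma membrane. It had 278.8 and 284.9 normalised read counts in siCtl and 487.4, 492 and 442.1 in siUpf1. All siUpf1 libraries were higher (log2 fold change 0.75, SE 0.126, DESeq2 adjusted p = 1.83e-08). Of its 100-nt windows, the length of a read, 1.37% were shared with an overlapping gene model. Rab26 and Rab37, both linked to secretory granules, were on average at 30.4 and 10.8 counts, and their 95% intervals of -0.65 to 0.99 and -1.83 to 0.98 show how little these depths say of them.

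**Figure D3:**
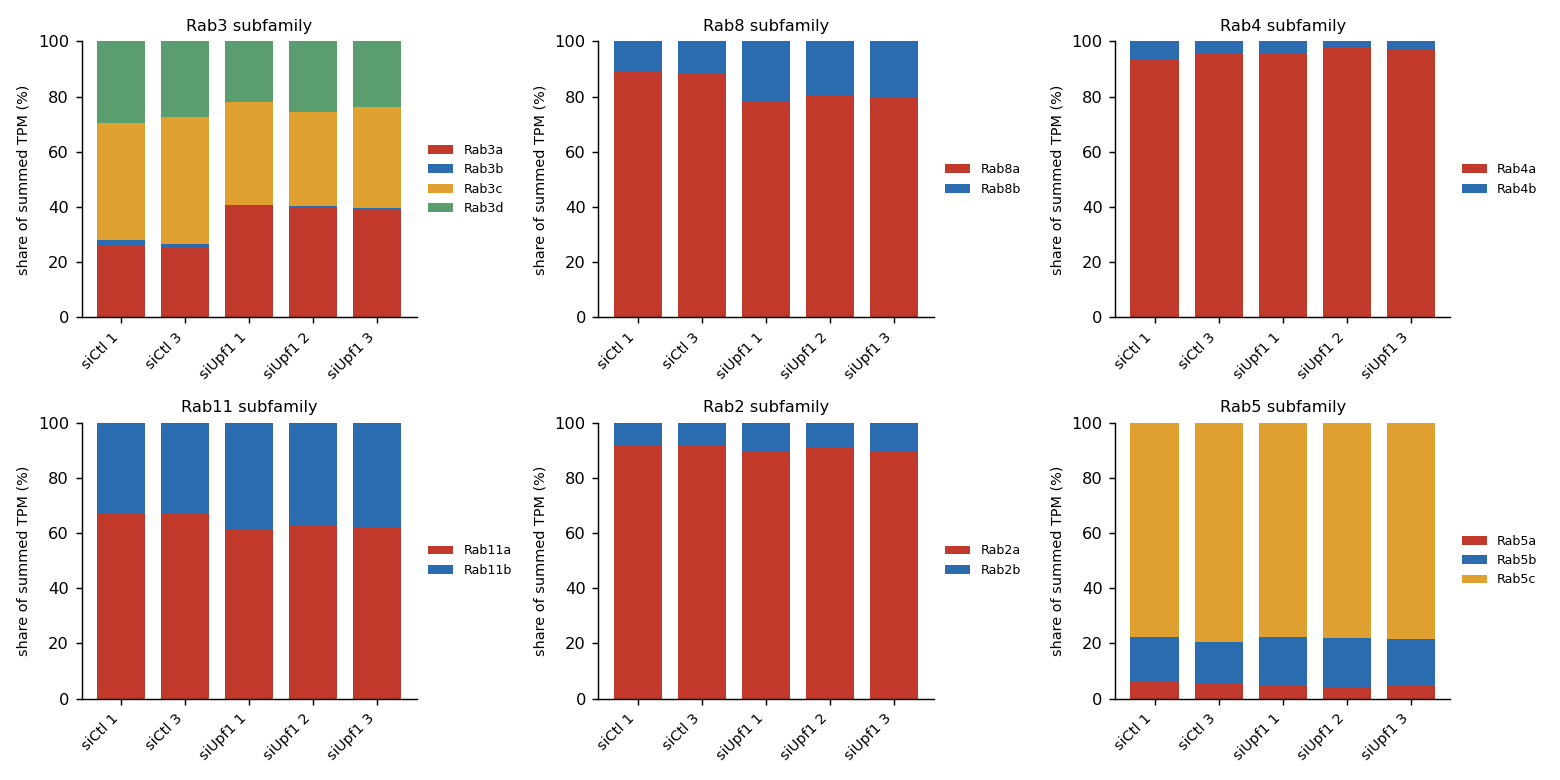
Share of each paralogue in the summed TPM of its subfamily (y axis, %) in each of the 5 libraries (x axis) for 6 subfamilies. The share of Rab3a rises from at most 26.2% in siCtl to at least 39.2% in siUpf1 and that of Rab8b from at most 11.45% to at least 19.8%, whereas the Rab4 shares of the groups overlap.

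Among the Rabs of ER and Golgi traffic, 9 of 12 were tested, 1 was higher (Rab30) and 2 were lower (Rab2a and Rab2b), with a median log2 fold change of 0.05. The share called was 33.3%, beside 44.9% of all tested genes, a difference that was not tested. Rab2a (chromosome 4, 8535644 to 8607778, plus strand) works in transport between the ER and the Golgi. It had 2656 and 2748 normalised read counts in siCtl and 1577, 1645 and 1580 in siUpf1. The siUpf1 libraries lay at 59.2% of the siCtl level and far from it relative to the spread (log2 fold change -0.76, SE 0.061, DESeq2 adjusted p = 1.98e-33). Rab2a was the member with the largest loss of normalised read counts. Its paralogue Rab2b fell less (log2 fold change -0.37, DESeq2 adjusted p = 0.00752), and the difference between the pair was 0.38 (95% interval 0.11 to 0.66). Without siCtl 1, without siCtl 3 or without siUpf1 2, Rab2b was no longer called (adjusted p = 0.0697, 0.123 and 0.0633).

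Rab30, a Golgi Rab, was at 116.4 and 90.6 normalised read counts in siCtl and at 194.8, 175.7 and 185.4 in siUpf1. The groups did not overlap (log2 fold change 0.85, SE 0.201, DESeq2 adjusted p = 0.000107). Rab1a and Rab1b, which start ER to Golgi transport, were at log2 fold changes of 0.06 and -0.11, with 95% intervals of -0.04 to 0.15 and -0.23 to 0.02. Rab6a (-0.08) and Rab18, of the ER and lipid droplets (0.05), were not called either. Rab33b, of the Golgi and autophagy, was at 0.21 and near the threshold (DESeq2 adjusted p = 0.0519, edgeR 0.0138). DESeq2 called it higher with total-count size factors (adjusted p = 0.0441) and with a minimum of 10 counts in 2 libraries (0.036). After removal of the trend with length and GC content it was called too (0.0113), and in the other alternatives it was not. For Rab43, 73.8% of the 100-nt windows were shared with the gene model Gm45140, so its low counts are uncertain.

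All 7 Rabs that act between the Golgi, the plasma membrane and the cilium were tested. Rab8b and Rab28 were higher, Rab13, Rab10 and Rab34 lower, and Rab8a and Rab23 were not called by DESeq2. The share called was 71.4% of a small group, beside 44.9% of all tested genes, a difference that was not tested. Rab23, a regulator of Hedgehog signalling, was at 0.18 (DESeq2 adjusted p = 0.0704, edgeR 0.015). Rab8b (chromosome 9, 66843664 to 66919687, minus strand) directs vesicles to the plasma membrane and the cilium, as Rab8a does. It had 240 and 239.6 normalised read counts in siCtl and 556.7, 515.8 and 537.5 in siUpf1. This was the second largest increase of the family, 2.24-fold (log2 fold change 1.16, SE 0.124, DESeq2 adjusted p = 1.18e-19). Of the 100-nt windows of Rab8b, 3.88% were shared with Gm20689. Apart from Rab43 and Rab4b, larger shares were those of Rab7 (7.91%, with Rab7-ps1), Rab11b (7.11%, with Rab11b-ps2) and Rab5b (6.14%, with Gm13991). Rab8a, the more abundant copy, was at 0.12 (DESeq2 adjusted p = 0.1, edgeR 0.0358). The difference between Rab8b and Rab8a was 1.04 (95% interval 0.77 to 1.31), and the share of Rab8b in their summed TPM went from 11.11% and 11.45% to 21.7%, 19.8% and 20.7%.

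Rab28, known for its part in cilia and photoreceptors, had 1044 and 963.2 normalised read counts in siCtl and 1701, 1652 and 1622 in siUpf1. Groups were again separate (log2 fold change 0.73, SE 0.074, DESeq2 adjusted p = 1.5e-21). Rab13, a Rab of epithelial junctions and surface delivery, had 246.3 and 279.3 in siCtl and 174.3, 178.2 and 180.1 in siUpf1 (-0.57, SE 0.162, DESeq2 adjusted p = 0.00156), a call that was lost without siCtl 3 (-0.48, adjusted p = 0.113). Rab10, which delivers membrane to the cell surface and to growing axons, fell by 0.34 on the log2 scale (SE 0.054, DESeq2 adjusted p = 1.77e-09). Rab34, needed for the early steps of cilium formation, was at -0.32, and without siCtl 3 it was not called (-0.24, adjusted p = 0.0968).

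**Figure D4:**
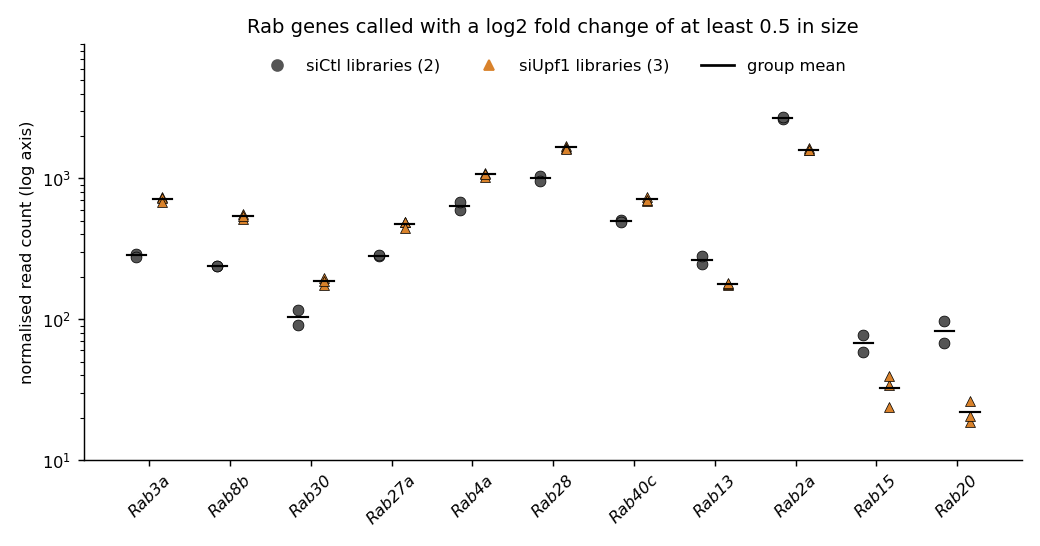
Normalised read counts (y axis, log) of the 11 Rab genes called with a log2 fold change of at least 0.5 in size, with circles for the 2 siCtl libraries, triangles for the 3 siUpf1 libraries and lines for group means. In each of the 11 genes all triangles lie on the same side of both circles, and the libraries of Rab15 and Rab20, which are under 100 counts, scatter widely.

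None of the early endosome Rabs was called higher by DESeq2 or edgeR, and none of them was higher at an unadjusted p-value under 0.05. In this group 7 of 8 were tested and 3 were lower, Rab20, Rab5a and Rab22a, with a median log2 fold change of -0.14. The share called was 42.9%, close to the 44.9% of all tested genes. Of all tested genes 22% were called higher, so in a group of 7 the absence of a higher member says little. Rab20 (chromosome 8, 11453518 to 11478710, minus strand) acts on endosomes and phagosomes and is known to respond to hypoxia. It had 97.5 and 67.9 normalised read counts in siCtl and 18.7, 26.4 and 20.5 in siUpf1. The highest siUpf1 library was well below the lower siCtl library, and the siUpf1 level was 26.4% of siCtl, the largest decrease of the tested members (log2 fold change -1.93, SE 0.367, DESeq2 adjusted p = 7.78e-07). It rested on 72 to 93 raw reads per siCtl library and 21 to 23 per siUpf1 library. With shrunken fold changes or any other alternative, its log2 fold change lay between -2.17 and -1.10.

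Rab5a, Rab5b and Rab5c all control fusion of early endosomes, and they did not move together. Rab5a fell (log2 fold change -0.40, SE 0.090, DESeq2 adjusted p = 3.93e-05), whereas Rab5c (-0.05, 95% interval -0.14 to 0.05) and Rab5b (0.11, -0.02 to 0.24) were not called. Rab5c exceeded Rab5a by 0.35 (95% interval 0.15 to 0.55) and Rab5b exceeded it by 0.51 (0.29 to 0.73). Rab5c supplied 77.6% to 79.4% of the subfamily's TPM in every library. Rab22a, which sorts cargo out of early endosomes, was at -0.18 (DESeq2 adjusted p = 0.0157), and it was not called without siCtl 1 (adjusted p = 0.127), siCtl 3 (0.13), siUpf1 2 (0.0548) or siUpf1 3 (0.114). With size factors from total counts Rab22a was not called either (0.061), the only call of the family lost to another scaling. Rab21, of integrin traffic, and Rab31, of transport from the Golgi to endosomes, were at -0.06 and -0.14 and were not called by DESeq2, although edgeR called Rab31 lower (adjusted p = 0.0456).

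The 8 recycling endosome Rabs were all tested, with 2 higher (Rab4a and Rab35), 2 lower (Rab15 and Rab11a) and a median log2 fold change of -0.04. The share called was 50%, beside 44.9% of all tested genes. Rab4a, the Rab of fast recycling to the cell surface, had 598.5 and 678.3 normalised read counts in siCtl and 1028, 1098 and 1079 in siUpf1. Its groups were well apart (log2 fold change 0.74, SE 0.090, DESeq2 adjusted p = 3.22e-15). For Rab4b, 49.3% of 100-nt windows were shared with Gm21983, and the difference of Rab4a from Rab4b (0.76, 95% interval -0.04 to 1.56) is poorly bounded. Rab15, a neuronal Rab of endosomal recycling, had 77.6 and 58.5 in siCtl and 33.8, 23.9 and 39.2 in siUpf1. The groups did not overlap (log2 fold change -1.06, SE 0.355, DESeq2 adjusted p = 0.00815), but the call was lost without siCtl 1 (-0.85, adjusted p = 0.219) and without siUpf1 2 (-0.90, adjusted p = 0.0565).

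Rab11a and Rab11b direct slow recycling. Rab11a was at -0.21 (SE 0.073, DESeq2 adjusted p = 0.0127) and Rab11b at 0.11 (95% interval -0.03 to 0.25), a difference of 0.32 (0.12 to 0.52). Without siCtl 1, siCtl 3, siUpf1 1 or siUpf1 3, Rab11a was not called (adjusted p = 0.113, 0.124, 0.0559 and 0.0522). Rab35, which recycles cargo and helps cells to complete division, was at 0.15 (DESeq2 adjusted p = 0.0249), and it was not called when any 1 library was left out (adjusted p 0.052 to 0.191). Rab14 was at -0.06 and not called by DESeq2, and it was lower after removal of the trend with length and GC content (-0.17, adjusted p = 0.00131). Rab25, an epithelial relative of Rab11, was on average under 10 counts.

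Of the 12 Rabs of late endosomes, lysosomes and autophagy, 7 were tested and 1 was called (14.3%, beside 44.9% of all tested genes, a difference that was not tested). This was Rab12, which controls degradation of transferrin receptor, and it was higher (log2 fold change 0.23, SE 0.069, DESeq2 adjusted p = 0.00215), though not without siCtl 1 (0.20, adjusted p = 0.1). Rab7, the central Rab of this route, was at 0.06 with a 95% interval of -0.03 to 0.15. Rab9, which returns receptors to the Golgi, was at 0.03 (-0.16 to 0.23), and Rab39b, a neuronal Rab, at -0.06 (-0.30 to 0.18). Rab24 (0.18), Rab32 (0.23) and Rab39 (0.25) were not called by DESeq2. Rab32 was called higher by edgeR (adjusted p = 0.0232) and after removal of the trend with length and GC content (0.0226), and after that removal so was Rab7 (0.00938).

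Members outside these routes were Rab40c, Rab36, Rab40b and Rab44. Rab40c, which recruits a ubiquitin ligase, had 503.2 and 490.6 normalised read counts in siCtl and 736.4, 694.1 and 700.6 in siUpf1. Again the groups were separate (log2 fold change 0.52, SE 0.0997, DESeq2 adjusted p = 1.19e-06). Rab36 was lower (-0.43, DESeq2 adjusted p = 0.00135), though not called without siCtl 1 (-0.39, adjusted p = 0.0661). Rab40b was on average at 26.4 counts, and its log2 fold change of 0.87 was not called by DESeq2 (95% interval -0.07 to 1.82, edgeR adjusted p = 0.0281). Rab44 was at -0.02.

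Precision separates 2 kinds of Rab genes that were not called. Of the 27 tested members without a call, 20 had a mean of at least 50 normalised read counts, and for 19 of these the 95% interval lay within 0.5 of 0 on the log2 scale. The exception was Rab39, with an upper end of 0.69. The other 7 had means between 9.63 and 38.6 counts, and their intervals left changes of 0.5 or more open in at least 1 direction. Of the 27, 3 had an unadjusted p-value under 0.05.

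Gene features that bear on NMD were compared with those of tested protein-coding genes. No Rab gene had a transcript of the protein-coding type with an exon junction over 50 nt after the stop codon. Of 12708 protein-coding genes, 160 had one (1.26%). Isoforms annotated as NMD targets are a separate type and were not searched, so a lack of such junctions in Rab genes is not shown. An isoform annotated as an NMD target was present for 10 of 49 tested Rab genes (20.4%, against 28.4% of protein-coding genes). Of these 10, 3 were higher (Rab4a, Rab35 and Rab40c) and 2 lower (Rab2b and Rab22a), with a median log2 fold change of 0.13, beside -0.02 for the other members. Of the 3615 protein-coding genes with such an isoform, 838 were higher and 1057 lower, with a median of -0.04. An ATG in the 5′ UTR of the representative transcript was found for 24 of 49 members (48.98%, against 51.6% of protein-coding genes), of which 6 were higher and 7 lower, beside 1815 and 1612 of the 6563 protein-coding genes with one. Rab3a had 7 ATGs in a 5′ UTR of 346 nt, and Rab44, which was not called, had 11 in 1226 nt. The part of these features in the changes after Upf1 knockdown was not tested.

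Rab mRNAs combine a short coding sequence with a long 3′ UTR. The median coding length was 651 nt for tested Rab genes and 1395 nt for tested protein-coding genes, and the median 3′ UTR length was 1951 against 985 nt, with a range from 214 nt (Rab25) to 8596 nt (Rab30). Of the Rab genes, 36 (73.5%) were above the median 3′ UTR length of protein-coding genes, and of these 8 were higher and 8 lower. Among protein-coding genes above that median, 1996 were higher and 1474 lower, and among the others 1124 and 1909. Spearman's correlation between the log2 fold change and 3′ UTR length was 0.16 over the 49 members and 0.18 over 12708 protein-coding genes. These values are descriptions across genes, which share the same libraries. Rab3a, with the largest increase, had a 3′ UTR of 547 nt, and Rab8b had 4055 nt. The part of 3′ UTR length in these changes was not tested.

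Seven-base sites for the siRNA seeds in 3′ UTRs were counted because an siRNA can also act through its seed. The site of the guide strand, GATAATT, was present in 4 tested Rab genes (8.16%, against 7.72% of 12553 protein-coding genes), of which only Rab30 was called, and it was higher. The site of the sense strand, AACCTTG, was present in 6 (12.2%, against 9.88%), of which 1 was higher and 3 lower, with a median log2 fold change of -0.07, beside 0.06 for the members without it. Among all protein-coding genes with this site, 271 were higher and 462 lower, and among those without it 2809 and 2906. The 3 lower Rab genes and Rab3c, which was higher, are shown with the site in capitals and 9 bases on each side, as these are the called members that hold it.
Rab2a, position 955 of a 1275-nt 3′ UTR: cagtttgtcAACCTTGatgtacagt
Rab2b, position 685 of a 1951-nt 3′ UTR: tgtgtgtacAACCTTGagcatcatt
Rab22a, position 5930 of a 6224-nt 3′ UTR: ttgcagtctAACCTTGggctggacc
Rab3c, position 2691 of a 7628-nt 3′ UTR: tcatcaagaAACCTTGgttgtaaaa
Rab9 and Rab11b also held this site and were not called. A match is a stretch of sequence only, and the part of the siRNA seeds in these changes was not tested.

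The genes that charge, discharge and anchor Rab proteins were counted in lists. Of 6 genes of prenylation and membrane cycling, 2 were higher and 3 lower (83.3%, beside 44.9% of all tested genes and 51.2% of protein-coding genes). Higher were Chml, an escort protein that presents Rabs for prenylation (192 ± 22.2 to 385 ± 50.98 normalised read counts, SD, n = 2 and 3, log2 fold change 1.01), and the GDP dissociation inhibitor Gdi2 (6673 ± 30.8 to 10080 ± 172, 0.59). Lower were Rabggtb (5948 ± 91.0 to 4630 ± 191, -0.36) and Rabggta (699 ± 5.57 to 589 ± 24.3, -0.25), the subunits of the enzyme that prenylates Rabs, and Rabac1, which helps to place Rabs on membranes (1607 ± 53.8 to 1282 ± 76.5, -0.33). Chm, the paralogue of Chml, was at -0.16 and not called (DESeq2 adjusted p = 0.299). Rabggta and Chm were named after their values were seen.

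Of 33 tested GEFs, 8 were higher and 8 lower (48.5%, beside 44.9% of all tested genes and 51.2% of protein-coding genes), and 7 were called in all without siCtl 3. Among those called, the highest were Gapvd1, which activates Rab5 (log2 fold change 0.34, DESeq2 adjusted p = 8.42e-10), and Rabif (0.31, 0.0313), and the lowest were the DENN-domain genes Dennd3 (-0.45, 7.98e-05) and Dennd2d (-1.40, 9.39e-06). Dennd2d went from 100.1 ± 6.74 to 37.8 ± 0.42 normalised read counts. Of 29 tested GAPs, 9 were higher and 10 lower (65.5%, beside the same 44.9% and 51.2%). Evi5l rose from 737 ± 22.5 to 1383 ± 24.9 (0.91, DESeq2 adjusted p = 3.18e-29) and Rabgap1l by less (0.40, 0.00358), whereas Sgsm1 (-0.50, 2.23e-15) and Tbc1d22a (-0.54, 3.41e-10) fell. The regulators of Rab3, chosen after their values were seen, did not move as 1 group. Its exchange factor Madd was at -0.01 (DESeq2 adjusted p = 0.945), and the subunits of its GAP were lower for Rab3gap1 (-0.26, 0.000422) and higher for Rab3gap2 (0.20, 0.0145).

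Effectors were called in 18 of 34 tested genes (52.9%, beside 44.9% of all tested genes and 51.2% of protein-coding genes), 11 higher and 7 lower. Among those called, the largest increases were those of Rab11fip4, a Rab11 partner (122 ± 6.30 to 232 ± 10.0 normalised read counts, log2 fold change 0.92, DESeq2 adjusted p = 1.26e-06), and Rilpl1, which binds Rab8 and Rab10 at the cilium (150 ± 3.56 to 256 ± 32.9, 0.76, 5.32e-05). The largest decreases were those of Rab11fip1, another Rab11 partner (670 ± 18.2 to 308 ± 22.8, -1.12, 1.04e-20), and Unc13d, which acts with Rab27a in granule release (317 ± 1.11 to 162 ± 10.3, -0.97, 5.75e-09). Rims2, a Rab3 effector of the presynaptic active zone that was chosen after its value was seen, was higher (2419 ± 2.34 to 3132 ± 99.6, 0.37, DESeq2 adjusted p = 2.16e-10).

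Arf and Arl GTPases, which also act in membrane traffic, were taken for comparison. Of 23 tested Arf and Arl genes, 7 were higher and 4 lower (47.8%, beside 44.9% of all tested genes and 51.2% of protein-coding genes), with Arl4a (log2 fold change 0.95) and Arf2 (0.54) the highest and Arl5b (-0.35) and Arl6 (-0.44) the lowest among those called. The median log2 fold change was 0.06 for the Arf and Arl genes, beside 0.05 for the Rab genes. No test of a difference between the families was made.

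**Figure D5:**
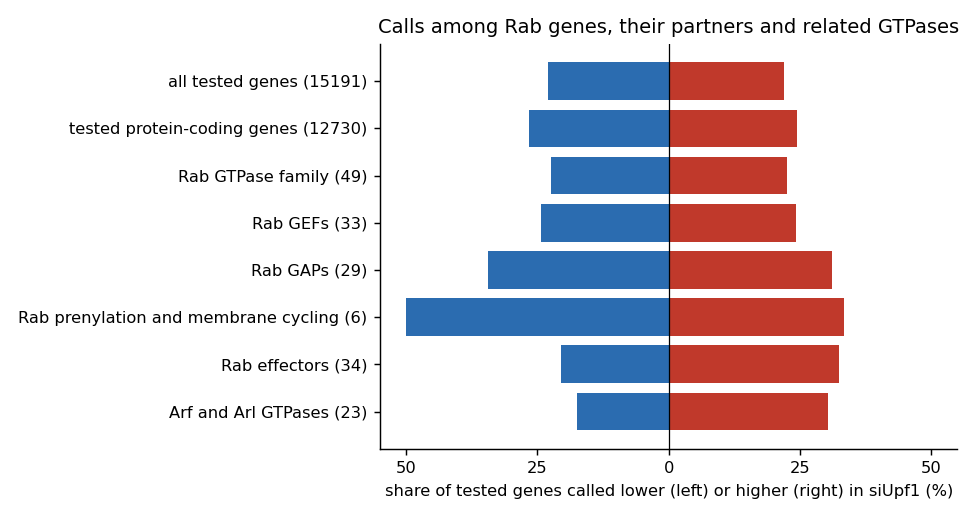
Share of tested genes called lower (left bars) or higher (right bars) in siUpf1, in %, for all genes, protein-coding genes, the Rab family, lists of Rab regulators and partners, and the Arf and Arl GTPases, with the number tested in parentheses. The Rab bars (22.4% each way) are close to those of all tested genes (22.9% and 22%), and the prenylation and cycling list rests on 6 genes.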

How the data were processed

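Poly(A) RNA of N2A cells was sequenced as strand-specific libraries with single-end reads of 100 nt. The deposited table held raw counts, which the authors made with fastp, STAR 2.7.0f on GRCm38.p6 and featureCounts of Subread 1.6.4, counting reverse-strand exonic reads. Replicates were not pooled or normalised. Libraries were grouped by their labels, which do not say that replicates were separate cultures, so p-values measure only the spread between these samples.

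All genes were fitted with DESeq2 1.42.0 in R 4.3.3 (Wald test with a single group term, size factors by the median of ratios, independent filtering of low means, Benjamini-Hochberg adjustment, threshold 0.05), the test named in the study's methods. edgeR 4.0.16 (quasi-likelihood) was an alternative, beside other size factors, count filters, removal of the trend with length and GC content, a block for the replicate number, shrinkage of the fold changes and omission of each library. Normalised read counts are counts over size factors. TPM was computed here from the union of exons of each gene in GENCODE M21, in which 99.8% of the genes were found; isoforms in use can differ from these models. Scripts were tested on simulated data. With 2 libraries against 3, permutation of a single value is too coarse to use. Duplicate reads cannot be recognised in counts.

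The Rab genes and the lists were chosen with earlier results of these data known. Values per library are given for called members with a log2 fold change of at least 0.5 in size and for Rab3a to Rab3d, and of the other lists, the 2 highest and 2 lowest called genes averaging 50 or more normalised counts are named. Exceptions are marked. The Rab symbols Rab41 and Rab7l1 of the role lists were not in the table. Protein sequences were not used here, and for Rab18 and Rab27b no sequence is printed and coding ends were not examined. Some planned list genes are not reported here and were left out of the list counts and sums.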

Additional observations from a re-analysis of the deposited data

How the results depend on the processing

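Of the 22 called Rab genes, 11 kept the call in all 13 alternatives (Rab10, Rab20, Rab27a, Rab28, Rab2a, Rab30, Rab3a, Rab3c, Rab40c, Rab4a and Rab8b), and Rab3d and Rab5a lost it only with the replicate number as a block (adjusted p = 0.0641 and 0.0537). Shrinkage of the fold changes left the adjusted p-values as they were, so that alternative could not lose a call. No call changed direction. edgeR called the same 22 and 7 more (16 higher, 13 lower). No pairing by replicate number was seen: deviations of same-numbered libraries from their group mean correlated at -0.05 for number 1 and -0.06 for number 3. With 2 siCtl libraries these deviations are mirror images, so the 2 values are not separate evidence. They cannot show whether the replicates were paired in the experiment. With the replicate block, in which siUpf1 2 has no partner, 8 Rab genes were higher and 3 lower, and called genes were 5 of the GEFs (16 without the block), 9 of the GAPs (19) and 7 of the Arf and Arl genes (11). With 1 library left out in turn, calls numbered 9 to 10 higher Rab genes, 6 to 10 lower Rab genes and 7 to 13 GEFs, the lowest values coming without siCtl 1 or siCtl 3, when the remaining siCtl library was assumed to vary like siUpf1. Signs turned in some uncalled genes near 0. Rab4b was at 0.0076 with edgeR, 0.0088 with total-count size factors, 0.10 with the block and 0.023 after removal of the trend with length and GC content. With 1 library left out in turn, Rab4b ranged from -0.30 to 0.26, Rab44 from -0.063 to 0.021, Rab39b from -0.13 to 0.034 and Rab9 from -0.048 to 0.11. Rab18 was at -0.023 and Rab5c at 0.022 after that removal, and Rab44 at 0.0053 with total-count size factors. The cause of these shifts was not tested. Depth limits the 7 tested members with means under 50 counts and the 10 untested ones.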
